A study of Mus musculus with 18 samples.

Results

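Integrins are the adhesion receptors with which blood and endothelial cells hold on to matrix, plasma proteins and each other, and 10 of their genes were followed here through blood specification and through the reprogramming of fibroblasts. The genes were chosen by name and role and not by a limit on their values: *Itga2b*, *Itgb3*, *Itgam*, *Itgb2*, *Itgal*, *Itgax*, *Itga4*, *Itga5*, *Itga6* and *Itgav*. They were taken from 20310 genes with stage values and from 20495 genes with values in fibroblasts. Of the 10 genes, 9 had stage values and 10 had fibroblast values, and *Itgam* in the stages was not analysed here.

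The RNA-seq samples were 18 in number. Cells of strain 129 were differentiated from a mouse embryonic stem cell (ESC) line that carries a brachyury GFP reporter and was grown on feeder fibroblasts, and 2 samples were sequenced for each of ESC, mesoderm (MES, Bry.GFP+ and FLK1-), hemangioblasts (HB, Bry.GFP+ and FLK1+), hematopoietic progenitors (HP, CD41+) and macrophages (MAC, CD11b+). The authors' table gives 1 FPKM value (fragments normalized for transcript length and library depth) per stage, and its column for hemogenic endothelium (HE, TIE2+, cKIT+ and CD41-) comes from an earlier series. Mouse embryonic fibroblasts (MEFs) of strain 129, taken at embryonic day 14.5, gave 8 libraries, 1 per treatment and day. They were untreated (uFIB) or labelled with the factor sets SL (*Scl*, also named *Tal1*, and *Lmo2*), SFGL (*Scl*, *Fli1*, *Gata2* and *Lmo2*) or FGL (*Fli1*, *Gata2* and *Lmo2*), at day 12 or day 21. Per the methods, MEFs were wild-type or carried iTal1-2A-GFP, a doxycycline-driven *Tal1* cassette with rtTA, and which of these each library came from was not given in the sources used here. Cells bearing CD45, CD41, CD31 or CD117 were removed by sorting, and the lentiviral factors were added before culture in hematopoietic medium with cytokines.

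Each integrin is a pair of an α and a β chain, and the pair decides which ligand is bound. The αIIb chain (*Itga2b*, the surface marker CD41) joins β3 (*Itgb3*) to form the fibrinogen receptor of platelets, and CD41 is also an early marker of embryonic blood progenitors. The β2 chain (*Itgb2*) is shared by the leukocyte integrins, with αL (*Itgal*, LFA-1), αM (*Itgam*, CD11b) or αX (*Itgax*, CD11c). The chains α4 (*Itga4*), α5 (*Itga5*) and α6 (*Itga6*) pair mainly with β1 (*Itgb1*) and bind VCAM1 and fibronectin, fibronectin, and laminins, whereas αv (*Itgav*) pairs with several β chains to bind vitronectin and other matrix proteins.

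Some genes of this set were themselves used to sort cells: HP were selected for the product of *Itga2b* and HE against it, and MAC were selected for the product of *Itgam*. The starting MEFs were also sorted against the product of *Itga2b*. Their differences between stages across those sorts are therefore described and are not findings. The counts of changed members below still include *Itga2b* at the steps into and out of HE and HP, which the sorts fixed in part. *Itgb3* and *Itgb2* encode the chains that pair with the products of *Itga2b* and *Itgam*. Their differences across these sorts, also counted below, may therefore not be independent of the sorts, which was not tested. The stage labels were matched by their marker lists. The summed FPKM of 5 endothelial markers was highest in HE at 271, that of 4 blood progenitor markers in HP at 99.1, and that of 7 macrophage markers in MAC at 1375. HE were sorted on TIE2 and cKIT, whose genes are among the 5 endothelial markers, so that match was fixed in part. The gene of TIE2 was at 110 FPKM in HE. The libraries labelled FGL went against the label in 2 of the factors. *Tal1*, which is not part of FGL, was at 7.04 FPKM at day 12 against 0.0414 in uFIB, and *Fli1*, which is part of it, was at 3.35 FPKM at day 21 against 3.02 in uFIB. The SL libraries held the 2 factors that set SFGL apart from SL. In SL, *Fli1* was at 46.7 and 34.4 FPKM (days 12 and 21) and *Gata2* at 68.8 and 62.6, beside 41.2 and 27.8 and 110 and 132 in SFGL, and added and endogenous transcripts cannot be told apart in these values. FPKM holds no read count, but low values in the MEF libraries fell on steps that placed their depth between 0.587 and 1.56 times that of uFIB at day 12.

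Of the 10 genes, 6 had a promoter in the RefSeq table for GRCm38.p6, which spans 250 bases before a gene's start and 50 bases from it. Shown are *Itga2b*, whose product defines the step to HP, and *Itgam* and *Itgax*, neighbours on the same strand of chromosome 7 with 11055 bases between them, of which only *Itgam* reached 1 FPKM in any MEF library. Capitals mark short motifs searched on both strands, AGATAA or TGATAA for GATA factors, TGTGGT for RUNX, GAGGAA for ETS factors and CAGCTG or CAGATG for E-box factors, which do not overlap each other below.
Itga2b (chr11:102469834-102470133, minus strand): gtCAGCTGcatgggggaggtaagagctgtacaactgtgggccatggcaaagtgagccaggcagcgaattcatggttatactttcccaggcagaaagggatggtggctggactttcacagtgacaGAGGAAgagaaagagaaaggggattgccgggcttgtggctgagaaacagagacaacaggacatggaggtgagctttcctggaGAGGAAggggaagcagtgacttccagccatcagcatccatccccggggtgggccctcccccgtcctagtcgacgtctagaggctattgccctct
Itgam (chr7:128062390-128062689, plus strand): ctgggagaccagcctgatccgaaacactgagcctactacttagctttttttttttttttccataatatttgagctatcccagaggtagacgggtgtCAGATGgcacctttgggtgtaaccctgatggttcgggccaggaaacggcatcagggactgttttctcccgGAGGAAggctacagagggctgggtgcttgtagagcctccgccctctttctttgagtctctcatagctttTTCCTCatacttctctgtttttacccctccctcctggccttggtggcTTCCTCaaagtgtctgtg
Itgax (chr7:128129300-128129599, plus strand): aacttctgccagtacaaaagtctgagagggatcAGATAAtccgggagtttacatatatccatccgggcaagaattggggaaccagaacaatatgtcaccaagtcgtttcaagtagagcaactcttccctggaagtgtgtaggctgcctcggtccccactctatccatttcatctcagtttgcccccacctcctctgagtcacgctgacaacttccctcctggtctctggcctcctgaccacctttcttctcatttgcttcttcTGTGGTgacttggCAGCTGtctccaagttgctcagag
The *Itga2b* window held 2 copies of GAGGAA, 126 and 44 bases before the start, and 1 CAGCTG. The *Itgam* window held 3 copies of GAGGAA and 1 CAGATG, and the *Itgax* window held 1 AGATAA, 1 TGTGGT, 1 CAGCTG and no GAGGAA. Of 32851 promoters of this length, 28.3% held GAGGAA, 11.2% AGATAA, 9.05% TGATAA, 16.8% TGTGGT, 16.3% CAGCTG and 17.2% CAGATG. These matches describe letters in a window and not bound sites.

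On GRCm38, the authors' table places *Itga2b* at chr11:102453297-102469883 and *Itgb3* at chr11:104608000-104670471. In GENCODE *Itga2b* lies on the minus strand and *Itgb3* on the plus strand, 2137877 bases apart. *Itgal* lies at chr7:127296260-127335137 and *Itgax* at chr7:128129568-128150657, and GENCODE places *Itgam* between them at chr7:128062640-128118491. *Itgb2* lies at chr10:77530348-77565674. Chromosome 2 holds *Itga4* (chr2:79255426-79428988), *Itga6* (chr2:71787083-71856758) and *Itgav* (chr2:83724397-83806916), and *Itga5* lies at chr15:103344286-103366748. These are the authors' coordinates, and GENCODE ends *Itga4* at 79333123 and starts *Itga6* at 71745616. The values sum over all exons of a gene. No window of 50 bases, the read length, was shared between any pair of the 10 genes' transcripts (the longest coding one of each). Windows shared with other genes made up 72.4% for *Itgam*, all with the read-through model Gm49368, 10.9% for *Itga4*, most with the antisense gene *Cerkl*, and 9.61% for *Itgax*, all with its paralog *Itgad*. *Itgad* was at most 0.136 FPKM in any stage, beside 143 FPKM of *Itgax* in MAC.

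Across the stages, the platelet pair appeared first, the β2 family last, and the fibronectin and laminin receptors were present from the start. In the order ESC, MES, HB, HE, HP and MAC, *Itga2b* was at 0.513, 0.185, 1.51, 19.5, 62.5 and 7.75 FPKM. It was thus 2-fold or more higher at 3 successive steps from MES to HP, and was already at 19.5 FPKM in HE, cells gated to lack CD41 protein. *Itgb3* was at 0.978, 0.292, 0.677, 6.50, 96.7 and 35.5 FPKM. Both chains thus peaked in HP, *Itgb3* by a larger step after HE. The platelet markers besides these genes were low in HE, where all 8 together summed to 0.782 FPKM, against 40.3 in HP and 277 in MAC, and *Pf4* made up 274 of the last value.

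The β2 chain and its partners came up in the last steps. *Itgb2* was at 0.0549, 0.0511, 0.0443, 0.386, 7.95 and 353 FPKM from ESC to MAC. *Itgax* was listed at 0 in ESC, MES and HB and was at 0.00698 in HE, 0.284 in HP and 143 FPKM in MAC. *Itgal* was at 0.395, 0.0224, 0.0185, 0.0288, 0.744 and 10.5 FPKM. All 3 were highest in MAC, and of the 3 only *Itgb2* exceeded 1 FPKM before that stage. In MAC the macrophage receptor genes *Csf1r* and *Emr1* stood at 234 and 353 FPKM.

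The receptors for fibronectin and laminin varied over a narrower range. *Itga5* was at 13.1, 5.96, 8.56, 16.9, 7.04 and 10.9 FPKM and was highest in HE. *Itga6* was at 29.5, 7.73, 11.4, 8.40, 11.7 and 35.4 FPKM, with the ends of the series, ESC and MAC, above all stages between. *Itgav* was at 5.66, 10.3, 12.2, 22.4, 11.7 and 23.4 FPKM. The α4 chain was the exception among the β1 partners: *Itga4* was at 0.0580, 0.181, 0.258, 1.40, 5.87 and 8.28 FPKM, higher at every step as deposited. Once all stages were given an equal upper quartile, its last step, from HP to MAC, was -0.21 in place of 0.43 in log2(FPKM + 1). Their common β chain, *Itgb1*, lay between 108 FPKM in HP and 336 FPKM in MAC, far above each of its α partners in every stage. No error can be given for these values, since the authors' table combines the replicates.

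**Figure D1:**
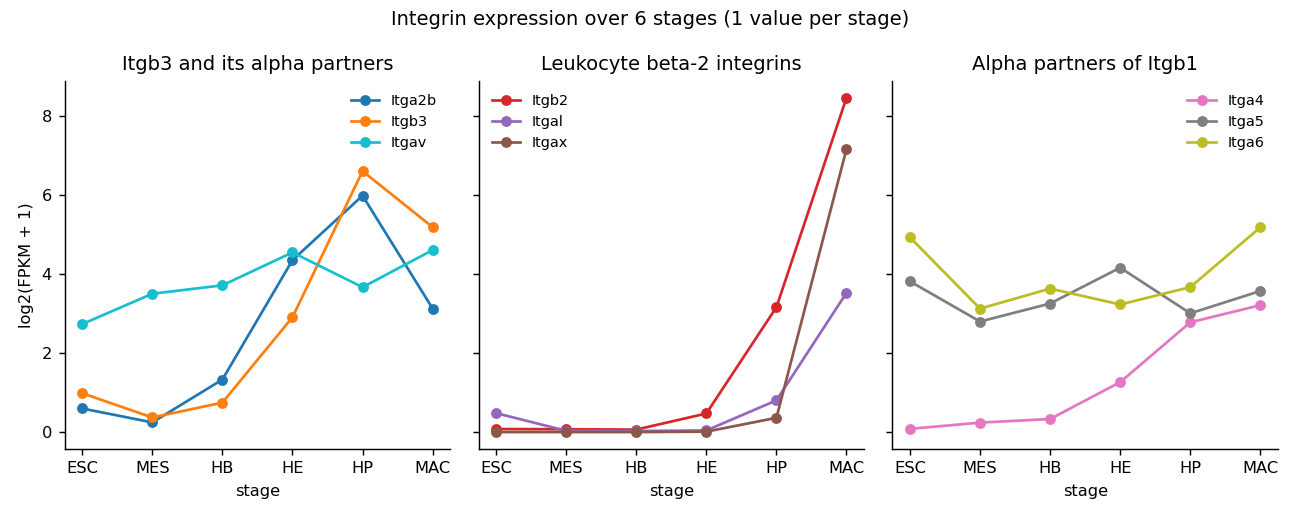
Expression of 9 integrin genes as log2(FPKM + 1) against the 6 stages from ESC to MAC, with 1 point per stage and gene (the authors' value, without error) and lines joining the points of a gene. *Itga2b* and *Itgb3* peak in HP, *Itgb2* and *Itgax* are by far highest in MAC, and *Itga5*, *Itga6* and *Itgav* stay between 5.66 and 35.4 FPKM.

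Neighbouring stages were called different for a gene where log2(FPKM + 1) differed by at least 1, a 2-fold change, and where either reached 1 FPKM. Shares of all genes were taken over those that reached 1 FPKM in either stage, whereas members were counted over all 9. Between ESC and MES, 2 of the 9 members were lower, *Itga5* and *Itga6*, with differences of -1.02 and -1.81 on that scale, and 0 were higher. Only *Itga5*, *Itga6* and *Itgav* reached the limit there. Of the 10605 genes that reached it, 7.3% were lower and 6.95% higher. Between MES and HB, *Itga2b* was higher and no member was lower, against 2.53% of genes higher and 3.3% lower. HB and HE differed for *Itga2b*, by 3.02, and for *Itgb3*, by 2.16, both higher in HE, where 8.67% of genes were higher and 4.83% lower. The differences of *Itga4* (0.93), *Itga5* (0.91) and *Itgav* (0.83) had the same direction and lay just short of the 2-fold limit. That of *Itga4* depended on the pseudocount: with 0.1 or 0.001 in place of 1 it was 2.07 or 2.44 and counted as a change, which made 3 members higher in HE.

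HE and HP differed for 5 members, *Itga2b*, the gene of the sort, among them. *Itgb3* was higher in HP by 3.70, *Itgb2* by 2.69, *Itga2b* by 1.64 and *Itga4* by 1.51, and *Itga5* was lower, with a difference of -1.16, where 5.14% of all genes were higher and 9.59% lower. Because HE comes from an earlier series, HB was also set against HP directly, a comparison added after the values were seen. The same 4 genes were then higher, by 5.86 (*Itgb3*), 4.66 (*Itga2b*, again the gene of the sort), 3.10 (*Itgb2*) and 2.45 (*Itga4*). No member was lower, and of all genes 8.88% were higher and 8.79% lower. Red cell markers moved across the same stages, with a sum of 5 markers of 4.41 FPKM in HB, 206 in HE, 6829 in HP and 22.2 in MAC, and their part in these differences was not tested.

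From HP to MAC, 4 members were higher and 2 lower, where 33.4% of all genes were higher and 13.9% lower. *Itgax* was higher by 6.81, *Itgb2* by 5.31, *Itgal* by 2.72 and *Itga6* by 1.51, whereas *Itga2b* and *Itgb3* were lower, with differences of -2.86 and -1.42. All genes together were shifted upwards in MAC, by a median of 0.35, and giving all stages an equal upper quartile turned this to -0.23 and the share of higher genes among the changed ones from 70.7% to 44.0%. Relative to the median of all genes, the difference was 6.46 for *Itgax*, 4.96 for *Itgb2*, 2.38 for *Itgal*, 1.17 for *Itga6*, -3.21 for *Itga2b* and -1.76 for *Itgb3*. After the scaling *Itga6* was higher by 0.81 and no longer counted, and the other 5 kept their direction and passed the limit. Between HE and HP the scaling took *Itga5* to -0.995 on the log2 scale (median of all genes -0.07 before and 0.07 after it), just short of the limit, and between MES and HB it moved the median of all genes from 0.12 to -0.00. As deposited, 6 of the 9 members were highest in MAC, 2 in HP and 1 in HE, and after the scaling these counts were 3, 3 and 2, with 1 highest in ESC. The share of all genes highest in each stage was not counted, so these counts do not set the members apart from other genes.

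In the MEFs, untreated cells expressed the matrix receptors and almost none of the blood integrins. In SL and SFGL the blood integrins other than *Itgax* were higher on both days, and the matrix receptors were still expressed. *Itgb2* was at 0.904 and 2.70 FPKM in uFIB (days 12 and 21), at 285 and 147 in SL, and at 310 and 153 in SFGL. Its partner *Itgam* was at 0.0366 and 1.37 in uFIB, 156 and 64.1 in SL, and 111 and 52.8 in SFGL. For *Itgal* the values were 0.0870 and 0.0760 in uFIB, 52.0 and 25.3 in SL, and 59.9 and 29.7 in SFGL. In each of these 3 genes every SL and SFGL library lay above both uFIB libraries, and within SL and within SFGL the day 12 library lay above that of day 21. The share of all genes whose libraries separate in this way was not counted. In bulk RNA such values cannot tell more cells of a type from more RNA per cell.

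The platelet pair was likewise present in every SL and SFGL library. *Itga2b* was at 1.10 and 1.003 FPKM in uFIB, 49.7 and 53.6 in SL, and 108 and 117 in SFGL. *Itgb3* was at 1.98 and 0.951 in uFIB, 28.0 and 23.7 in SL, and 25.7 and 20.0 in SFGL. *Itga2b* was thus higher in SFGL than in SL on both days, and *Itgb3* was not. *Itga4*, the receptor for VCAM1, was at 0.328 and 0.843 in uFIB, 16.6 and 31.5 in SL, and 16.4 and 43.0 in SFGL, and unlike the β2 family it was higher at day 21 than at day 12.

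The receptors that MEFs already used moved less. *Itgav* was at 46.6 and 38.0 FPKM in uFIB, 16.3 and 22.7 in SL, and 14.6 and 17.8 in SFGL. *Itga6* was at 5.71 and 7.48 in uFIB, 11.5 and 14.1 in SL, and 13.4 and 12.7 in SFGL. The fibronectin receptor chain *Itga5* was at 30.6 and 21.3 in uFIB, 25.7 and 22.8 in SL, and 25.2 and 19.6 in SFGL, so that the groups overlapped.

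*Itgax* stood apart from the other β2 partners, at 0.0143 and 0 FPKM in uFIB, 0.146 and 0.0941 in SL, and 0.164 and 0.0553 in SFGL. With the depths read from low values, the uFIB value of day 12 was taken as a step. The other values above 0 then came out as whole multiples of that step, to within 0.0001 of a multiple. They were 16 and 4 in SL, 13 and 3 in SFGL, and 3 in FGL at day 12. The uFIB and FGL values of day 21 were 0. If the step is 1 read, no value rests on more than 16 reads. The gene did not reach the expression limit of the test.

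**Figure D2:**
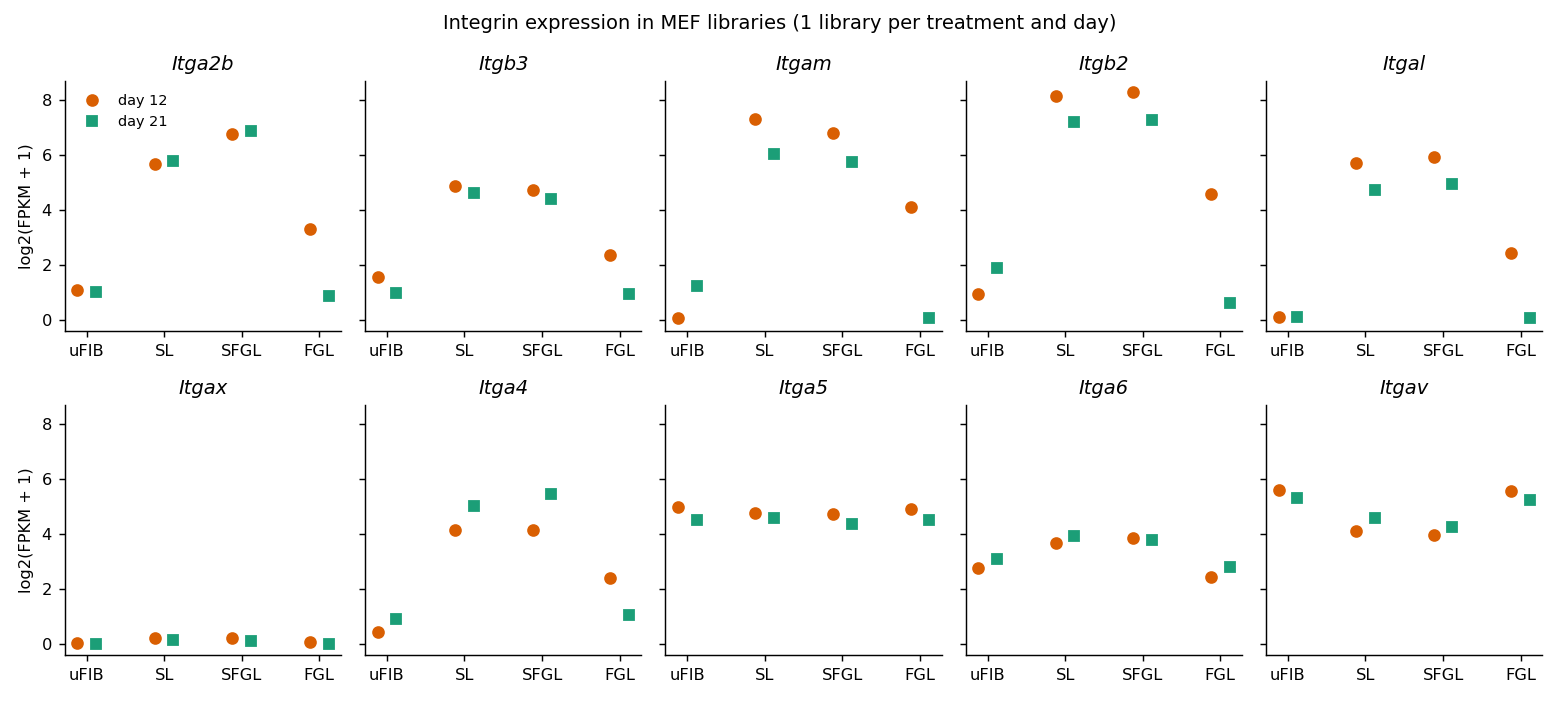
log2(FPKM + 1) of the 10 integrin genes in the 8 MEF libraries, grouped by treatment on the horizontal axis, with circles for day 12 and squares for day 21 (1 library each, no error bars). The SL and SFGL points of the blood integrins *Itga2b*, *Itgb3*, *Itgam*, *Itgb2*, *Itgal* and *Itga4* sit above both uFIB points. Those of *Itga6* do so too, and those of *Itgav* sit below. The share of all genes that separate in this way was not counted. *Itgax* stays near 0, and the FGL points of the listed blood integrins are raised at day 12 and near uFIB at day 21.

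Treatments were compared with limma on log2(FPKM + 1), with the day as a term, over 12521 genes that reached 1 FPKM in at least 2 libraries, 9 of the members among them. With 1 library per treatment and day, the spread behind a p-value is the departure of all 8 libraries from additive effects of treatment and day. All groups share it, so a group that differed between days widens every comparison of that gene. The day term leaves 3 residual degrees of freedom. Whether the libraries came from separate cultures was not given in the sources used here. In SL against uFIB, 7 of the 9 tested members rose and 1 fell, where 25.3% of all genes were higher and 27% lower at an adjusted p below 0.05. *Itgb2* rose by 6.27 ± 1.06 (standard error) on the log2 scale (limma, adjusted p = 0.00606), *Itgam* by 6.01 ± 1.13 (adjusted p = 0.00829) and *Itgal* by 5.11 ± 0.51 (adjusted p = 0.00148). The rises of *Itga2b* (4.68 ± 0.66), *Itga4* (3.93 ± 0.62), *Itgb3* (3.47 ± 0.29) and *Itga6* (0.87 ± 0.14) had adjusted p-values between 0.00119 and 0.00519. *Itgav* fell by 1.09 ± 0.22 on the log2 scale (adjusted p = 0.0108). For *Itga5* the estimate was -0.07, with a 95% interval from -0.36 to 0.21.

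SFGL against uFIB gave the same counts, 7 members higher and 1 lower of 9, where 27.8% of all genes were higher and 30.9% lower. *Itgb2* rose by 6.36 ± 1.06, *Itga2b* by 5.79 ± 0.66, *Itgam* by 5.63 ± 1.13, *Itgal* by 5.32 ± 0.51, *Itga4* by 4.14 ± 0.62, *Itgb3* by 3.29 ± 0.29 and *Itga6* by 0.90 ± 0.14. *Itgav* fell by 1.33 ± 0.22 on the log2 scale, and the adjusted p-values of these 8 genes lay between 0.000751 and 0.00847. *Itga5* was estimated at -0.19 with an interval from -0.47 to 0.09. The SL and SFGL comparisons share their uFIB libraries.

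SFGL and SL were also compared directly. No member passed (0 of 9), the share of all genes called was 0%, and 1082 of 12521 genes and 0 members had an unadjusted p below 0.05. The largest member difference was that of *Itga2b*, which was 2.17 times as high in SFGL as in SL at day 12 and 2.19 times at day 21. Its estimate was 1.11 ± 0.66 with a 95% interval from -0.54 to 2.76 (limma, adjusted p = 0.7005, and 0.445 without the FGL libraries). The standard error is pooled over all groups, FGL included, where *Itga2b* differed from uFIB by 2.23 at day 12 and -0.15 at day 21. The adjusted p-value thus does not mean that the difference between SFGL and SL failed to repeat between days. The intervals of *Itgb2* (-2.56 to 2.74) and *Itgam* (-3.19 to 2.43) were wide enough to hold differences of several-fold in either direction, whereas that of *Itga5* ran from -0.40 to 0.16. Against uFIB, *Fli1* and *Gata2*, which the SL label does not name, rose in SL by 3.28 ± 0.23 and 4.49 ± 0.19 (limma, adjusted p = 0.00106 for both), and their part in the comparison of SFGL with SL was not tested.

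The libraries labelled FGL did not repeat between days. At day 12 they held *Itgb2* at 22.8 FPKM, *Itgam* at 16.4, *Itga2b* at 8.83, *Itgal* at 4.37, *Itga4* at 4.17 and *Itgb3* at 4.12. Each of these lay between uFIB and the SL and SFGL libraries of that day. At day 21 *Itgb2* was at 0.525, *Itgam* at 0.0415, *Itga2b* at 0.805, *Itgal* at 0.0370, *Itga4* at 1.06 and *Itgb3* at 0.933. At that day all of these were within or below the range of uFIB except *Itga4*, which exceeded it by a small amount. *Itga5*, *Itga6*, *Itgav* and *Itgax* stood at 28.6, 4.30, 46.3 and 0.0384 FPKM at day 12 and at 21.9, 5.85, 36.7 and 0 at day 21. No member passed in FGL against uFIB (0 of 9, and 0 at an unadjusted p below 0.05), where 0.016% of all genes, *Lmo2* and *Gata2*, passed and 482 genes had an unadjusted p below 0.05. *Itga2b* was estimated at 1.04 ± 0.66 and *Itgb2* at 1.18 ± 1.06. Without the day 21 library labelled FGL, the *Itga2b* estimate was 2.29. FGL was then a single library, which the fit assumes to vary like the other groups.

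**Figure D3:**
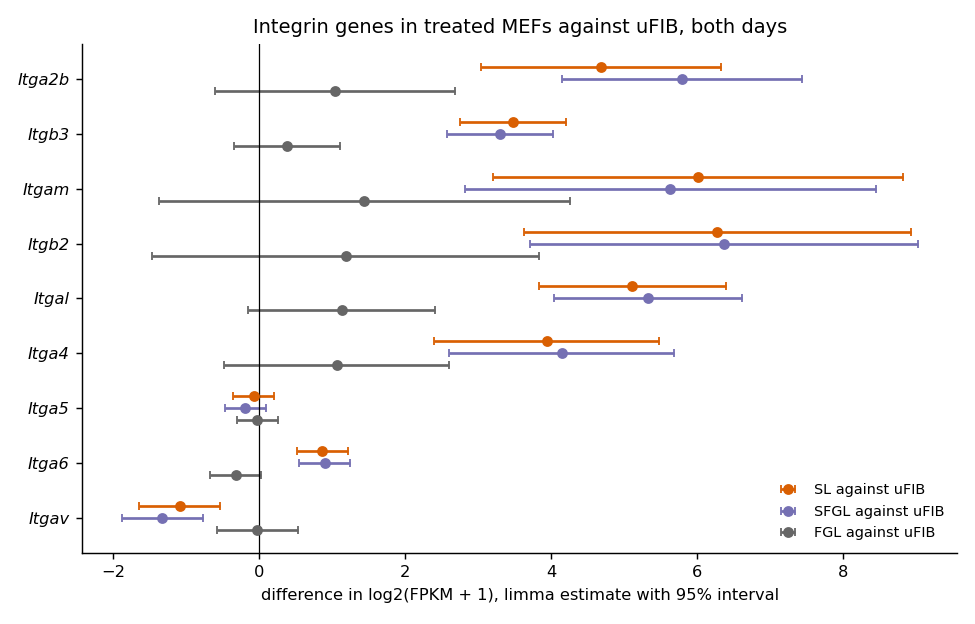
limma estimates of the difference in log2(FPKM + 1) from uFIB over both days for the 9 tested integrin genes (horizontal axis), with 95% intervals as bars and a colour for each of SL, SFGL and FGL. The SL and SFGL intervals lie above 0 for 7 genes, below 0 for *Itgav* and across 0 for *Itga5*, and all FGL intervals cross 0.

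Markers of other cell types moved with these genes, and their part in the results was not tested. Beside the counts of markers below, 25.3% of all genes rose and 27% fell in SL. In SFGL 27.8% of all genes rose and 30.9% fell. The sum of 8 macrophage markers was 24.4 and 36.0 FPKM in uFIB, 2764 and 1552 in SL, 1425 and 1196 in SFGL, and 243 and 14.8 in FGL, and 5 of 6 tested markers rose in SL and 6 of 6 in SFGL. *Lyz2* made up most of that sum in SL and SFGL. In those 4 libraries *Lyz2* was at 1048 to 2525 FPKM, *Sfpi1* at 81.6 to 171, *Cd14* at 21.0 to 50.2, *Cd68* at 14.3 to 30.1 and *Emr1* at 1.89 to 6.69. The receptor gene *Csf1r* was at 0.734 to 1.92 FPKM and rose in SFGL by 0.99 ± 0.19 (adjusted p = 0.00724), with an estimate of 0.55 ± 0.19 in SL (adjusted p = 0.0547). *Mrc1* was at 0.160 to 0.573, and *Fcgr1* at 0.146 and 0.101 at day 12 and at 0 at day 21. The sum of 4 mast cell markers was 0.446 and 0.582 in uFIB, 69.9 to 139 in SL and SFGL, and 3.98 and 1.51 in FGL, and 3 of 3 tested rose in both. The sum of 7 platelet markers was 0.653 and 1.32 in uFIB, 38.4 to 61.9 in SL and SFGL, and 6.32 and 1.03 in FGL, and 6 of 6 tested rose in both. Red cell markers rose as well. The sum of 5 of them was 0.392 and 0.445 in uFIB, 116 and 246 in SL, 76.0 and 278 in SFGL, and 28.5 and 0.931 in FGL, and 5 of 5 rose in both. For 4 blood progenitor markers the sum was 20.0 and 24.8 in uFIB, 195 to 281 in SL and SFGL, and 43.5 and 25.1 in FGL, and 4 of 4 rose in both. For 5 endothelial markers it was 2.18 and 1.59 in uFIB, 16.6 to 42.4 in SL and SFGL, and 3.39 and 1.54 in FGL, and of 3 tested 3 rose in SL and 2 in SFGL. Fibroblast markers moved with *Itgav*. Their sum was 6615 and 5214 FPKM in uFIB, 2249 and 1153 in SL, 1853 and 947.7 in SFGL, and 5414 and 5080 in FGL, and 8 of 8 fell in SL and in SFGL.

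The balance between chains was compared within each table, as the ratio of FPKM of an α chain to its β chain in the same column. *Itga2b* stood at 2.99 times *Itgb3* in HE, 0.646 times in HP and 0.218 times in MAC. In the MEFs the ratio was 1.78 and 2.27 in SL and 4.21 and 5.88 in SFGL. Within the stages, the order of the chains in HP and MAC was thus the reverse of that in HE, which comes from an earlier series. In SL and SFGL *Itga2b* exceeded *Itgb3* on both days. Stage and MEF ratios rest on separately processed values and were not compared with each other. *Itgav*, the other partner of *Itgb3*, exceeded it 23.6 and 40.0 times in uFIB, and lay at 0.583 and 0.958 times in SL and 0.569 and 0.895 times in SFGL. Towards β5 the *Itgav* ratio changed little, from 0.524 and 0.487 in uFIB to 0.500 and 0.568 in SL and 0.619 and 0.620 in SFGL, and *Itgb5* fell too, by 1.18 ± 0.15 in SL and 1.64 ± 0.15 in SFGL (log2 scale, adjusted p = 0.00270 and 0.000856). Of the other β chains that join αv, *Itgb1* was at 183 to 402 FPKM in the MEF libraries, and *Itgb6* and *Itgb8* were at most 0.0461 and 4.02 FPKM.

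The β2 family differed in its α chains. In MAC, *Itgax* reached 0.404 of *Itgb2* and *Itgal* 0.0298. In SL and SFGL, *Itgax* lay between 0.000361 and 0.000641 of *Itgb2*, *Itgal* between 0.172 and 0.194, and *Itgam* between 0.346 and 0.549. The *Itgal* share thus varied by little across these 4 libraries while *Itgb2* itself ranged from 147 to 310 FPKM. Summed over the 3 α chains, SL held 208 and 89.5 FPKM beside 285 and 147 of *Itgb2*. For *Itga4*, the ratio to *Itgb1* was 0.0541 in HP, 0.000817 and 0.00276 in uFIB, 0.0838 and 0.109 in SL, and 0.0895 and 0.189 in SFGL.

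**Figure D4:**
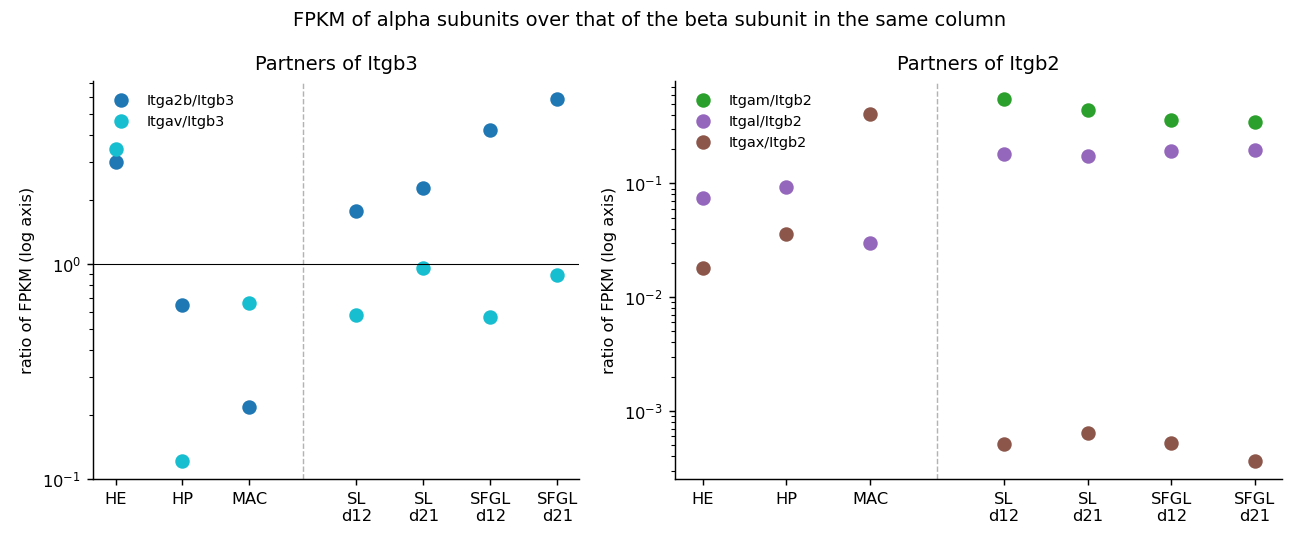
Ratio of the FPKM of α chains to that of *Itgb3* (left) and *Itgb2* (right) on a log axis, for HE, HP and MAC and, right of the dashed line, for the SL and SFGL libraries at days 12 and 21 (1 value per column, no error). *Itga2b* over *Itgb3* is 2.99 in HE, 0.218 in MAC and above 1 in all 4 MEF libraries, and *Itgax* over *Itgb2* is 0.404 in MAC and below 0.001 in the MEF libraries.

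The other integrin subunits, 16 genes, went mostly the opposite way in the MEFs. Of 10 tested, 1 rose and 6 fell in SL, where 25.3% of all genes rose and 27% fell, and 1 rose and 7 fell in SFGL, where 27.8% rose and 30.9% fell, with medians of -1.21 and -1.52 beside -0.03 and -0.04 over all genes. The gene that rose was *Itgb7*, the second β chain of α4, by 2.996 ± 0.22 in SL and 3.53 ± 0.22 in SFGL. The collagen receptor chain *Itga11* fell by 1.99 ± 0.11 and 2.10 ± 0.11, *Itgb8* by 1.90 ± 0.15 and 2.06 ± 0.15, and *Itga1*, also a collagen receptor chain, by 1.496 ± 0.21 and 1.93 ± 0.21. *Itgb1* was estimated at -0.54 ± 0.24 in SL (adjusted p = 0.113) and fell by 0.78 ± 0.24 in SFGL (adjusted p = 0.0385). In the stages, of 7 that reached 1 FPKM in HB or HE, 3 were higher and 1 lower in HE (8.67% and 4.83% of all genes), among them *Itga3*, a laminin receptor chain, at 20.9 against 2.07 FPKM, *Itga1* at 6.38 against 1.11 and *Itga9*, the lower one, at 1.65 against 5.93. Of 7 in HE and HP, none was higher in HP and 4 were lower (5.14% and 9.59% of all genes), *Itga1*, *Itga3*, *Itgb1* and *Itgb5*, and after the scaling 2 were. From HP to MAC, *Itgb5* went from 4.53 to 52.1 FPKM and *Itga3* from 5.11 to 0.0184, with 3 higher and 1 lower of 4 (33.4% and 13.9% of all genes), and 1 and 1 after the scaling.

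**Figure D5:**
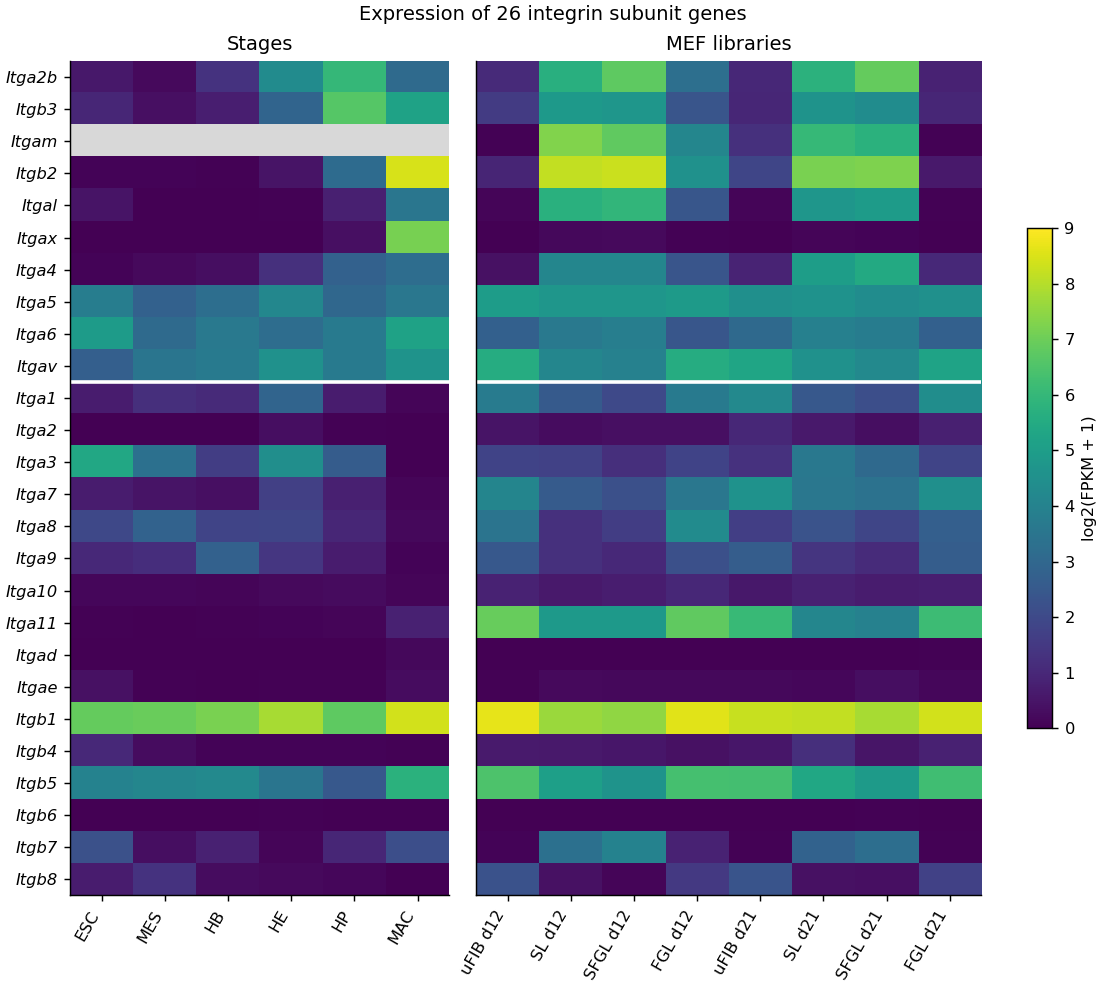
Heat map of log2(FPKM + 1) for 26 integrin subunit genes (rows, the 10 described genes above the white line) in the 6 stages (left) and the 8 MEF libraries (right), with grey where no value was analysed. The 2 panels were normalized separately by the authors. *Itgb1* is high in every column, from 108 FPKM in HP to 402 in uFIB at day 12, and *Itgax* is bright only in MAC.

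Activators and adaptors, 28 genes that link integrins to actin and to kinases, included forms typical of blood cells that were higher where the blood integrins were. *Fermt3*, which encodes the kindlin of blood cells needed for integrin activation, was at 0.957 FPKM in HB, 23.7 in HE, 80.0 in HP and 168 in MAC. Of 22 that reached 1 FPKM in HB or HE, 5 were higher and 1 lower in HE, beside 8.67% and 4.83% of all genes, with *Lyn*, *Parva* and *Tln1* (talin) among the higher ones. Of 25, HP against HE gave 7 higher (5.14% of all genes), among them *Ptk2b* and *Syk*, kinases downstream of integrins, and 3 lower (9.59%), among them *Fermt2* (39.1 to 6.72 FPKM), the kindlin of other tissues, and *Parva*. Of 27, MAC against HP gave 12 higher and 4 lower, beside 33.4% and 13.9% of all genes, and 9 and 8 after the scaling. The median difference of the list was 0.78 beside 0.35 over all genes. There *Fgr*, a Src-family kinase of myeloid cells, went from 1.26 to 20.1 FPKM, *Lims2* from 0.118 to 8.29, and the adaptor gene *Bcar1* from 9.79 to 0.251. In the MEFs 27 were tested: 16 rose and 7 fell in SL, and 16 rose and 8 fell in SFGL, with medians of 0.53 and 0.59 beside -0.03 and -0.04 over all genes. Of all genes, 25.3% rose and 27% fell in SL and 27.8% and 30.9% in SFGL. *Fermt3* rose by 6.07 ± 0.84 and 6.26 ± 0.84, *Syk* by 4.38 ± 0.58 and 4.49 ± 0.58, and *Rasgrp2*, an activator of Rap1 in platelets, by 3.42 ± 0.24 and 3.58 ± 0.24. None passed in FGL.

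Ligands formed the third list, with 30 genes. Of 18 that reached 1 FPKM in HB or HE, 11 were higher in HE and none was lower, beside 8.67% and 4.83% of all genes, including *Postn* (0.0299 to 36.8 FPKM), *Thbs1* (1.08 to 35.3), *Icam2* (1.29 to 18.3) and *Tnc* (0.573 to 11.5). Of 20, HP against HE gave 4 higher (5.14% of all genes), among them *Spp1* (osteopontin, 0.229 to 25.1) and *Tgfb1* (6.51 to 26.5), and 11 lower (9.59%), among them *Icam2* (to 1.62) and *Lama4* (20.1 to 3.35). Of 21, MAC against HP gave 7 higher and 11 lower, beside 33.4% and 13.9% of all genes, and 4 and 12 after scaling, with *Nov* from 0.0846 to 3506 FPKM and *Spp1* from 25.1 to 11303, and with *Lamb1* (14.3 to 0.0994) and *Postn* (23.3 to 1.72) among the lower ones. Of 24 tested in the MEFs, 6 rose and 9 fell in both SL and SFGL, with medians of -0.51 and -0.76 beside -0.03 and -0.04 over all genes, of which 25.3% rose and 27% fell in SL and 27.8% and 30.9% in SFGL. *Postn* fell by 2.98 ± 0.41 and 3.54 ± 0.41, whereas *F11r* rose by 2.89 ± 0.42 and 2.55 ± 0.42, *Icam2*, a ligand of LFA-1, by 2.79 ± 0.29 and 2.92 ± 0.29, and *Tgfb1* by 2.69 ± 0.14 and 3.09 ± 0.14.

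Genes most alike to each member were ranked by the mean of Pearson's r over the 6 stages and r over the 8 MEF libraries, on log2(FPKM + 1), among genes that reached 10 FPKM in both tables. The columns share their libraries and depth between genes, and with so few columns these values are descriptions. For *Itga2b* the first 3 were *P2ry1* (mean r of 0.99), *Etv6* (0.99) and *P2rx1* (0.98). For *Itgb3* they were *Atp2a3*, *Gpr97* and *Hk1* (0.99, 0.98 and 0.97). *Itgb2* was closest to the joint locus of *Evi2a* and *Evi2b* and to *Lilrb4* (0.999 each), and *Itgal* to *Ccdc88b*, *Arhgap9* and *Fcgr2b* (0.997, 0.996 and 0.996). *Itga4* was closest to *Ctse*, *F10* and *Uba7* (0.99, 0.98 and 0.98), *Itga6* to *Mlx*, *Bola2* and *Cdk18* (0.95, 0.95 and 0.94) and *Itgav* to *Capn2*, *Sec16a* and *Pja2* (0.97 each). *Itga5*, which varied least, reached only 0.85 with *Flna*, the gene of filamin A, 0.77 with *Rnf185* and 0.76 with *Rbm18*. *Hk3*, *Pnpla7* and *Snx20* stood closest to *Itgax* (0.99, 0.99 and 0.98), whose MEF values rest on few reads, and *Itgam* was left out for want of stage values.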

How the data were processed

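RNA-seq samples were assigned to groups from their labels. The authors' FPKM values were used as deposited: for the stages 1 value per transcription start site and stage, with replicates combined, and for the MEFs 1 value per gene and library. Per the labels the authors used Cufflinks, for the MEFs after TopHat, on build mm10 (GRCm38), and the supplemental methods give reads of 50 bases in colour space. Keeping unique reads and removing duplicates limits high values and genes with near copies. The 2 tables were normalized separately, so levels were compared only within a table. Start site values were summed per gene; each of the 9 stage members had 1. No columns of other samples were used, apart from HE, an authors' value. Stages, having no replicate columns, were compared by fold and not tested. MEF treatments were fitted with limma 3.58.1 in R 4.3.3 on log2(FPKM + 1) with treatment and day over all 8 libraries, Benjamini-Hochberg adjusted over 12521 genes. Simulated data of that size with 100 genes changed by 1 and 100 by 2 on the log2 scale gave 63 and 85 recovered and 12 false calls in SL against uFIB. The depth of single values is unknown in FPKM, so no counting interval is given. Promoter sequences are from RefSeq and transcripts from GENCODE M21; the authors' coordinates were counted from 1. The members and lists were chosen with earlier results of these data known. The genes named were all members, the 4 genes of each list that moved most at the HB to HE, HE to HP and HP to MAC steps and in SL against uFIB, *Itgb1* and the β partners of *Itgav*, the factor genes, and the 3 genes most alike to each member; *Csf1r*, *Emr1*, *Mrc1*, *Fcgr1*, *Lyz2* and *Pf4* were named after their values were seen. A few genes that this rule names are not reported here. Python 3.11.15, NumPy 2.4.6, pandas 2.3.3 and matplotlib 3.10.9 were used for the rest. Other pseudocounts, limits, scalings and left-out libraries were tried as alternatives.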

Additional observations from a re-analysis of the deposited data

Results flagged for a closer look

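Several members differed from the control of the same day in opposite directions at day 12 and day 21, by differences in log2(FPKM + 1) between single libraries that were not tested. In the libraries labelled FGL against uFIB, *Itgam* stood at 4.07 and -1.19, *Itgb2* at 3.64 and -1.28, *Itgal* at 2.30 and -0.0533, *Itga2b* at 2.23 and -0.15 and *Itgb3* at 0.78 and -0.0131. These 5 blood integrins were all higher at day 12 only. *Tal1* was at 7.04 FPKM in the day 12 library and at 0.0705 in that of day 21, and its part in the difference was not tested. *Itga5* had small differences of opposite sign in FGL (-0.10 and 0.0358) and in SL (-0.24 and 0.10). In SFGL against SL, *Itga4* stood at -0.0211 and 0.44, *Itga6* at 0.20 and -0.14 and *Itgax*, on at most 16 steps of its smallest value, at 0.0217 and -0.0521.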

How the results depend on the processing

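Of 62 recomputed stage counts, 59 stayed within 1.5 times. With a limit of 5 FPKM, 0 members were higher between MES and HB, and after scaling to the same upper quartile 0 were lower between HE and HP; with HB in place of HE, added after the data were seen, 0 were lower and 4 higher. No called difference of a member changed direction under any alternative run. Uncalled ones did: with scaling, *Itga4* went from 0.43 to -0.21 and *Itga5* from 0.57 to -0.0950 between HP and MAC, and without the day 12 library of FGL, *Itgb2* went from 1.18 to -0.63 in FGL. *Itga4* passed the limit between HB and HE with a pseudocount of 0.1 (2.07) or 0.001 (2.44). Counts of called members in the MEFs with 1 library left out ran from 6 to 8 in SL, 7 to 8 in SFGL, 0 to 1 in FGL and 0 to 0 in SFGL against SL, the lone library of a treatment being assumed to vary like the other groups. *Itgav* and *Itgam* lost the call in SL without the SL library of day 12 (adjusted p = 0.0638 and 0.0506), *Itgav* without the uFIB library of day 12 (0.0715), and *Itgam* in SFGL without the SFGL library of day 21 (0.0548). With no filter on low values *Itgam* and *Itgav* had adjusted p = 0.0516 and 0.0526 in SL and *Itgam* 0.0522 in SFGL, with more genes tested. Both kept their direction there.

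Over all genes, a pseudocount of 0.1 or 0.001 raised the number of higher and lower genes from 737 and 774 to 1140 and 1226 or 1195 and 1270 between ESC and MES, from 258 and 337 to 397 and 607 or 414 and 643 between MES and HB, and of lower genes from 501 to 776 or 797 between HB and HE. A limit of 5 FPKM gave 171 and 190 between MES and HB, 290 lower between HB and HE and 289 higher between HE and HP, against 533. Scaling gave 2088 higher and 2660 lower genes in MAC, against 3615 and 1501. In SL, 6555 genes became 3758, 3870 and 4067 without the SL or uFIB library of day 12 or the SL library of day 21, and the 2 genes of FGL became 22 without its day 21 library, 1 without the day term and 0 with no filter.

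No paired analysis was possible because the stage table holds 1 value per stage, without columns for the numbered replicates, and the MEF libraries carry no replicate numbers. The MEF libraries share their day, which is a term of the fit, and without it 8, 8, 0 and 0 members were called in SL, in SFGL, in FGL and in SFGL against SL. The cause of each lost call was not tested. Stage values have no error and MEF tests rest on 3 residual degrees of freedom, which limits small differences most.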
